A study of Arabidopsis thaliana with 18 samples.

Results

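In roots of Arabidopsis thaliana grown on backward-tilted plates, 78 probe sets had lower transcript levels than in roots on upright plates in both wild-type ecotypes, Col-0 and WS. These probe sets were chosen by the array values themselves: on the log2 scale defined below, their group mean at a growth plate angle (Agp) of 45° lay at least 0.5 below their group mean at Agp 90° in Col-0 and also in WS. Of all 22746 probe sets, 84 met both limits. The 6 among them that carry the names SP1L2, AT5G44400, AT4G12490, EXLA3, AT5G06730 and AT4G36430 were left out. A probe set is the group of short probes on the array that reports 1 transcript. In the annotation used here, 38 of the 78 members are assigned to a single gene. Another 3 are assigned to more than 1 gene and 37 to none, and both of these kinds are counted in every total without a name.

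The tilted groups were Col-0 and WS at Agp 45° (backward slant) and at Agp 135° (forward slant), and their seedlings spent 3 days upright and then 5 days tilted. The upright groups were Col-0 and WS at Agp 90° for all 8 days. Every seedling was wild type, 8 days old, and grown in continuous light on the surface of 0.5x MS medium set with Phytagel. Each of the 18 Affymetrix ATH1 arrays (3 per ecotype and angle) carried RNA from 5 whole roots preserved in RNAlater. Cell types were therefore mixed, and fewer cells of a type cannot be told apart from less RNA per cell. The study reports that roots were shortest on backward-tilted plates, longer on forward-tilted plates and longest on upright plates. It also reports longer roots in WS than in the other ecotype. The groups compared here thus differed in root length, and the part of root length in the members' values was not tested. The labels do not say whether replicates came from separate plates, so p-values measure only the spread between these arrays, whose number limits the precision.

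Roots that grow along a tilted, impenetrable surface receive gravity and touch signals together, and they often respond by waving, which is a back-and-forth undulation, or by skewing, which is a steady deviation to the side. The cells of an elongating root depend on their walls, where pectins and xyloglucans are modified by secreted enzymes and by proteins that inhibit those enzymes. Roots also make many small secreted or defence-related proteins, among them lectins, dirigent proteins, defensin-like peptides and lipid transfer proteins. The named members are described below by such families. Beside single genes, the text gives deposited signals on the linear scale of the array software. All differences are between group means of log2(signal + 32) after quantile normalization. On that scale a difference of 1 is a factor near 2 for a bright probe set, and the added value of 32 understates the change of a dim one. Of the 78 members, 19 had at least 1 group whose mean signal was under 32.

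The root tissue and the arrays were examined first. Of 19 root hair marker genes 6 had a named probe set, and their summed signal ranged from 5746 to 9212 over all arrays, with overlapping groups at Agp 45° and Agp 90° in each ecotype. Of 25 genes of green tissue 3 had a named probe set, with summed signals of 1544 to 1651 in WS at Agp 45° and 1681 to 2499 in WS at Agp 90°, which do not overlap. In Col-0 these sums overlapped, at 1728 to 2584 at Agp 45° and 1571 to 2856 at Agp 90°. The part of this difference in the members' values was not tested, and markers of endodermis, xylem, phloem, root cap and dividing cells had 0 named probe sets. The actin control probe sets for the 3' and 5' ends, whose quotient climbs as RNA degrades, had a quotient of 6.06 on Col-0 Agp 90° replicate 2 and 6.05 on WS Agp 90° replicate 3, both upright, and at most 4.76 elsewhere. Without those 2 arrays 84 probe sets met the rule, and 65 of them were members. The part of this ratio in the members' values was not tested. The array that most affected the choice was another one. Col-0 Agp 90° replicate 3 was the highest of its group for 50 of the 78 members, against 36.6% of all probe sets, and 52 of the 78 still met the limits without it.

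Over the 78 members, the difference at Agp 45° ranged from -1.92 to -0.50 in Col-0 with a median of -0.63, and from -2.79 to -0.50 in WS with a median of -0.80. The median over all probe sets was -0.0042 in Col-0 and 0.0095 in WS. These differences chose the members and are given as a description with no test. Of all probe sets, 1.02% met the limit in Col-0, 2.4% in WS and 0.369% in both. In the opposite direction, 23 probe sets were higher by 0.5 or more in both ecotypes. The difference was larger in WS for 56 of the 78 members and for 30 of the 38 named ones. Over all probe sets, too, more differed by 0.5 or more in WS (546 lower, 311 higher) than in Col-0 (231 lower, 186 higher). The share of all probe sets with the larger difference in WS was not computed, so the 56 cannot be read as a trait of the members. The members' difference at Agp 45° was -1 or less for 13 in Col-0, for 21 in WS and for 10 in both. Backward-tilted and upright arrays did not overlap, with the tilted ones lower, for 65 members in Col-0 (6.82% of all probe sets), for 69 in WS (8.32%) and for 58 in both (1.19%). The same arrays chose the members, so these counts follow in large part from the choice and are no support for it. By limma's test with Benjamini-Hochberg adjustment, 0.0176% of all probe sets were lower and 0.0044% higher at Agp 45° in Col-0, and 0.827% were lower and 0.158% higher in WS.

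**Figure D1:**
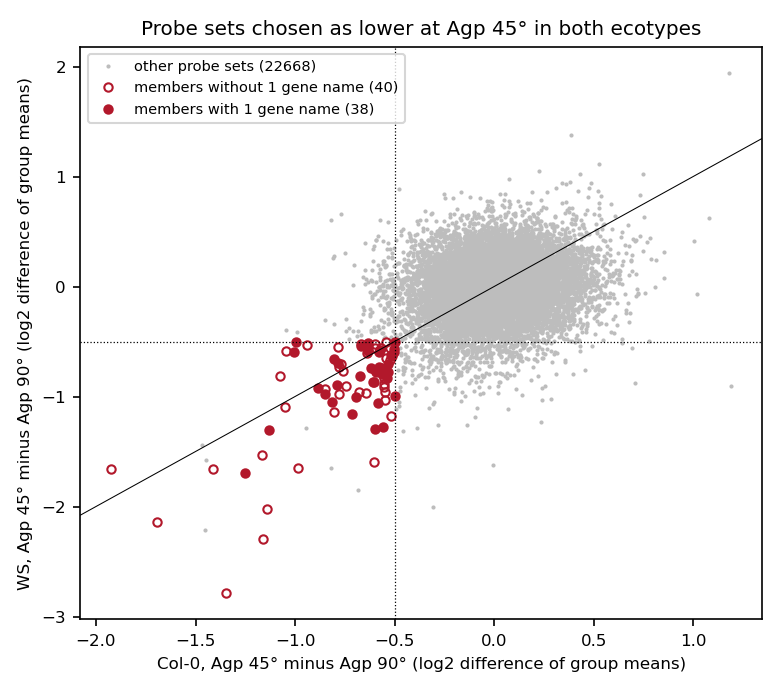
Each point is a probe set, placed by its log2 difference between Agp 45° and Agp 90° in Col-0 (horizontal axis) and in WS (vertical axis). Dotted lines mark the limit of -0.5 that chose the members. Filled red points are the 38 members with 1 gene name and open red points the other 40. Of the 78, 56 lie below the diagonal, where the difference is larger in WS, a share not computed over all probe sets.

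Near the limit, the members and the probe sets just outside differed by little. The named members closest to it on the inside were AT4G29270 (-0.50 in Col-0 and -1.0 in WS), AT5G26260 (-0.50 in both) and AT4G22470 (-0.99 in Col-0 and -0.50 in WS). On the outside the closest named probe sets were ATMPK13, a mitogen-activated protein kinase, with -0.49 in Col-0 and -1.11 in WS, AT1G67750 with -0.52 in Col-0 and -0.49 in WS, and AT3G28540 with -0.48 in Col-0 and -0.76 in WS.

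Major latex protein-like genes gave 3 named members, AT4G14060, AT1G14960 and AT3G26460. Proteins of this family share a fold with the birch pollen allergen Bet v 1 and are thought to bind small hydrophobic ligands. AT4G14060 had signals of 189, 167 and 188 in Col-0 at Agp 45°, of 293, 252 and 192 at Agp 135°, and of 304, 447 and 606 at Agp 90°. Its WS signals were 427, 508 and 637 at Agp 45°, 1495, 965 and 897 at Agp 135°, and 1397, 1240.2 and 1429.5 at Agp 90°. The backward-tilted arrays were the lowest of each ecotype, with differences from upright of -1.13 in Col-0 and -1.30 in WS, and every tilted Col-0 array lay below every WS array. AT3G26460 gave 507, 499 and 447 in Col-0 at Agp 45°, 727, 690.0 and 774 at Agp 135°, and 570.4, 749 and 854 at Agp 90°. In WS it gave 1321, 1476 and 1605 at Agp 45°, 2983, 2382 and 2640.4 at Agp 135°, and 2960.1, 2823 and 2258 at Agp 90°. Backward-tilted and upright arrays did not overlap (-0.54 in Col-0 and -0.83 in WS), whereas the forward-tilted mean differed from the upright mean by 0.03 in Col-0 and 0.01 in WS. AT1G14960 had 332, 455 and 399.9 in Col-0 at Agp 45°, 1090.3, 706 and 724 at Agp 135°, and 974, 642 and 543 at Agp 90°. The WS arrays gave 594, 460.1 and 502 at Agp 45°, 1782, 1843 and 1507 at Agp 135°, and 1099.6, 1118 and 810.4 at Agp 90°. Its differences were -0.79 in Col-0 and -0.89 in WS at Agp 45°. At Agp 135° the WS arrays lay above the upright ones without overlap (0.75), and the Col-0 arrays overlapped them (0.23, or 0.05 without Col-0 Agp 90° replicate 3 and 0.03 without Col-0 Agp 135° replicate 1).

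Methyltransferases of the SABATH type, which use S-adenosylmethionine to methylate the carboxyl groups of small acids, gave AT5G37990 and AT5G38020. Both genes lie on chromosome 5 with 2 genes between them, and the probes of such near copies can cross-hybridize. AT5G37990 had signals of 1293, 1028 and 1071 in Col-0 at Agp 45°, of 2180.1, 1659 and 1514 at Agp 135°, and of 1995, 1802 and 2175 at Agp 90°. In WS the same probe set gave 1998, 2089 and 2417 at Agp 45°, 3894, 3966 and 3564 at Agp 135°, and 4053, 4815 and 4656 at Agp 90°. AT5G38020 had 823, 701 and 499.6 in Col-0 at Agp 45°, 1266, 1090.5 and 959 at Agp 135°, and 1006, 1144 and 1342 at Agp 90°. Its WS signals were 3341, 3490.4 and 3828 at Agp 45°, 6433, 5456 and 5137 at Agp 135°, and 5393, 5446 and 6189.8 at Agp 90°. For both genes and in both ecotypes, backward-tilted arrays were below all others of the ecotype, and forward-tilted arrays overlapped upright ones except for AT5G37990 in WS. The differences at Agp 45° were -0.81 in Col-0 and -1.05 in WS for AT5G37990, and -0.78 in Col-0 and -0.69 in WS for AT5G38020. At Agp 135° all 4 lay between -0.25 and -0.012.

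AT2G33850, which encodes a protein with no known function, had the largest mean difference of the named members. Its signals were 427, 359 and 311 in Col-0 at Agp 45°, 673, 572 and 476 at Agp 135°, and 749, 599 and 1653 at Agp 90°. In WS they were 418, 709 and 745 at Agp 45°, 1504, 983 and 1021 at Agp 135°, and 2093, 2227 and 1921 at Agp 90°. Forward-tilted arrays were intermediate in WS with no overlap on either side, and in Col-0 the upright mean rested in part on 1 array. The difference at Agp 45° was -1.25 in Col-0, or -0.83 without Col-0 Agp 90° replicate 3, and -1.70 in WS. At Agp 135° it was -0.65 in Col-0, or -0.23 without that array, and -0.82 in WS.

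JAL22, a jacalin-related lectin that belongs to a family of sugar-binding defence proteins, had signals of 1243, 1216 and 1064 in Col-0 at Agp 45°, of 1714, 1615 and 1639 at Agp 135°, and of 1779, 2118 and 2684 at Agp 90°. In WS it gave 2431, 2645 and 2791 at Agp 45°, 4959.7, 3854 and 3599 at Agp 135°, and 4898, 4656 and 5549 at Agp 90°. Backward-tilted arrays were lowest in each ecotype (-0.88 in Col-0 and -0.93 in WS), and forward-tilted arrays were intermediate in Col-0 (-0.39) and overlapped upright ones in WS (-0.28). Members that resemble defence peptides were AT2G43530, a scorpion toxin-like knottin, with -0.50 in Col-0 and -0.60 in WS, and AT4G37290, related to the PAMP-induced secreted peptides, with -0.58 in Col-0 and -0.73 in WS. The mean signal of AT4G37290 was at most 33.9 in any group, close to the added value of 32.

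Dirigent proteins guide the coupling of phenolic radicals, as in lignan formation, and 2 of their genes were members. AT4G11190 had signals of 1876, 1762 and 1428 in Col-0 at Agp 45°, of 2500.0, 2172 and 2050.0 at Agp 135°, and of 2527, 3200.3 and 2329.7 at Agp 90°. Signals in WS were 3197, 3025 and 2794 at Agp 45°, 6989, 5014 and 5716 at Agp 135°, and 5768, 4964 and 4907 at Agp 90°. Both ecotypes had their lowest 3 arrays at Agp 45° (-0.67 in Col-0 and -0.82 in WS), and at Agp 135° the difference was -0.26 in Col-0 and 0.14 in WS. For AT3G13650 the differences at Agp 45° were -0.60 in Col-0 and -0.78 in WS, and those at Agp 135° were -0.36 in Col-0 and -0.70 in WS.

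Genes that act on wall carbohydrates made the largest group with a known role, with 6 named members whose differences at Agp 45° ranged from -0.80 to -0.53 in Col-0 and from -1.06 to -0.58 in WS. AT2G01610, of the family of invertase and pectin methylesterase inhibitors, had signals of 188, 178 and 287 in Col-0 at Agp 45°, of 281, 278 and 345 at Agp 135°, and of 278, 333 and 412 at Agp 90°. In WS it had 299, 382 and 427 at Agp 45°, 639, 542 and 654 at Agp 135°, and 851, 718 and 891 at Agp 90°. One backward-tilted Col-0 array overlapped the upright ones, while in WS the 3 angles did not overlap. AT3G62820, of the same inhibitor family, had differences of -0.61 in Col-0 and -0.87 in WS. AT1G10640, a pectin lyase-like protein of the polygalacturonase type, had -0.80 in Col-0 and -0.66 in WS. GH9B13 encodes a family 9 endoglucanase and BGLU44 a beta-glucosidase. GH9B13 had -0.60 in Col-0 and -0.75 in WS, and BGLU44 had -0.53 in Col-0 and -0.71 in WS. XTH33, a xyloglucan endotransglucosylase/hydrolase, had -0.58 in both ecotypes, and its Col-0 arrays at Agp 45° and Agp 90° overlapped. In Col-0 at Agp 135° the 6 differences ranged from -0.59 to -0.12, and in WS from -0.64 to -0.26.

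AT4G22730, a receptor-like kinase with leucine-rich repeats, had signals of 190.5, 143 and 169 in Col-0 at Agp 45°, of 214, 213 and 261 at Agp 135°, and of 225, 266 and 331 at Agp 90°. Its WS signals were 139, 169 and 182 at Agp 45°, 353, 219 and 359 at Agp 135°, and 463, 443 and 458 at Agp 90°. The difference at Agp 45° was -0.60 in Col-0 and -1.30 in WS, and in WS the 3 angles did not overlap. AT1G52820, a 2-oxoglutarate and Fe(II)-dependent oxygenase, had 49.6, 7.88 and 148 in Col-0 at Agp 45°, 87.8, 34.3 and 23.4 at Agp 135°, and 112, 51.6 and 196 at Agp 90°. In WS it had 57.6, 142 and 114 at Agp 45°, 132, 95.4 and 142 at Agp 135°, and 213, 271 and 323 at Agp 90°. The Col-0 groups overlapped at every angle, and in WS both tilted groups lay below the upright group. Its differences at Agp 45° were -0.71 in Col-0 and -1.16 in WS, and at Agp 135° they were -0.86 in Col-0 and -0.99 in WS. Without Col-0 Agp 90° replicate 3 the Col-0 differences were -0.37 at Agp 45° and -0.51 at Agp 135°, and without Col-0 Agp 45° replicate 2 or replicate 3 the one at Agp 45° was -0.19 or -1.24.

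**Figure D2:**
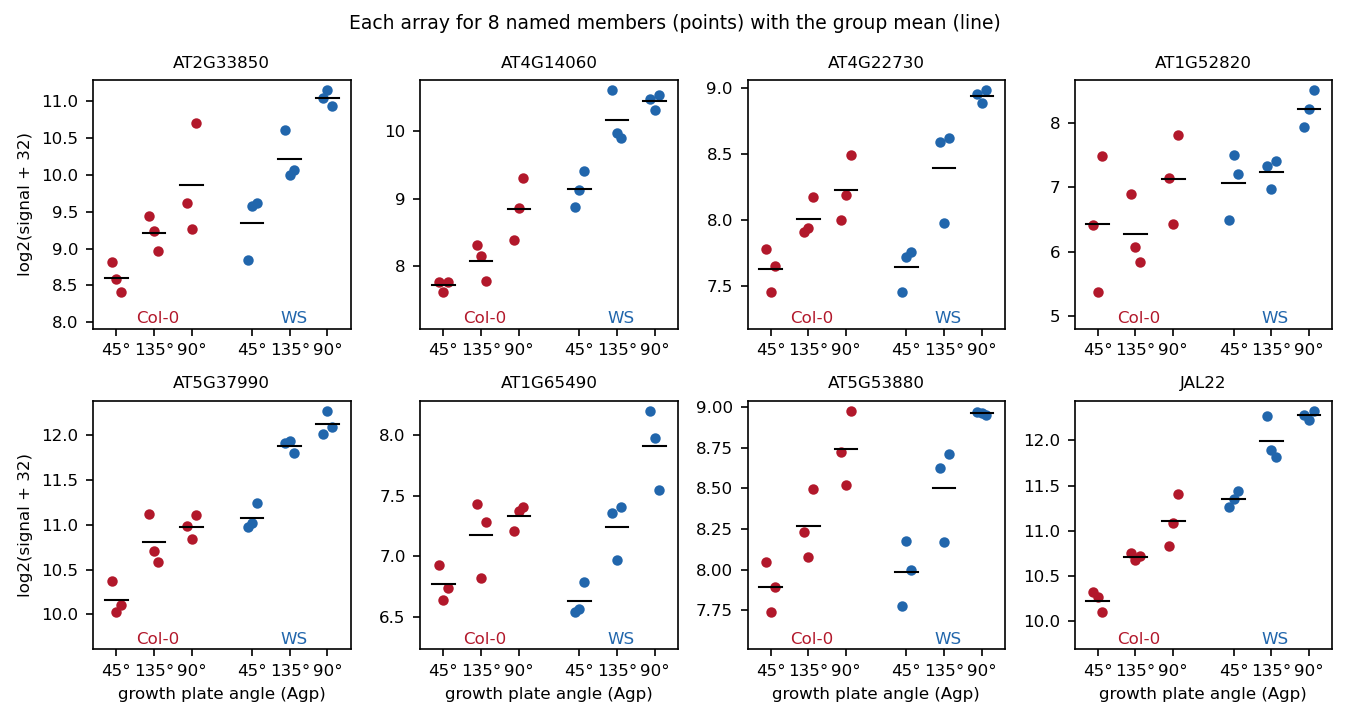
Each panel shows 1 of the 8 named members with the largest mean difference, with the log2(signal + 32) of each array as a point (Col-0 red, WS blue) and the group mean as a line, at Agp 45°, 135° and 90° within each ecotype. Apart from AT1G52820 in Col-0, the 3 arrays at Agp 45° lie below the 3 arrays at Agp 90° in every panel and ecotype.

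AT1G65490 and AT1G65500 are adjacent genes on chromosome 1 that encode small proteins of unknown function. AT1G65490 had signals of 88.1, 64.5 and 73 in Col-0 at Agp 45°, of 144, 80.1 and 125 at Agp 135°, and of 119, 133 and 140.0 at Agp 90°. In WS it had 60.7, 62 and 78.5 at Agp 45°, 134, 95.2 and 142 at Agp 135°, and 262, 222 and 149 at Agp 90°. The ecotypes overlapped at both tilts, and the upright Col-0 arrays were below the upright WS arrays (differences at Agp 45° of -0.56 in Col-0 and -1.27 in WS). AT1G65500 had 38.4, 36.3 and 18.2 in Col-0 at Agp 45°, 31.3, 34.2 and 49.9 at Agp 135°, and 85.6, 59 and 63.2 at Agp 90°. The WS arrays gave 186, 124 and 172 at Agp 45°, 184, 144 and 239 at Agp 135°, and 266, 253 and 261 at Agp 90°. Both tilts lay below upright in both ecotypes without overlap, and every Col-0 array lay below every WS array. The difference at Agp 45° was -0.63 in Col-0 and -0.59 in WS, and at Agp 135° it was -0.49 in Col-0 and -0.44 in WS.

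AT5G53880, another gene of unknown function, had signals of 236, 183 and 206 in Col-0 at Agp 45°, of 275, 238 and 334 at Agp 135°, and of 391, 346 and 477 at Agp 90°. In WS they were 182, 244 and 222 at Agp 45°, 364, 253 and 385 at Agp 135°, and 468, 469 and 448 at Agp 90°. Both tilts lay below upright in both ecotypes, with differences of -0.85 in Col-0 and -0.98 in WS at Agp 45° and of -0.47 in Col-0 and -0.46 in WS at Agp 135°. AT4G29270, an acid phosphatase of the HAD superfamily related to vegetative storage proteins, had 2142, 1899 and 1932 in Col-0 at Agp 45°, 2698, 2608 and 2609.8 at Agp 135°, and 2575, 2648 and 3229 at Agp 90°. Its WS signals were 2235, 2503 and 2876 at Agp 45°, 4219, 3324 and 3755 at Agp 135°, and 5112, 5058 and 4906 at Agp 90°. At each angle all Col-0 arrays were below all WS arrays, and at Agp 45° the highest Col-0 signal (2142) was close to the lowest WS signal (2235).

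Transporters and lipid-related proteins gave 5 named members. AT1G72140, of the NRT1/PTR family, had -0.70 in Col-0 and -1.0 in WS at Agp 45°, with -0.04 in Col-0 and -0.20 in WS at Agp 135°. OCT1, an organic cation transporter, had -1.01 in Col-0 and -0.60 in WS at Agp 45°, with means of 30.0 to 102 across the groups. AT4G22470, a protease inhibitor and lipid transfer protein family member, had signals of 102, 55.5 and 16.6 in Col-0 at Agp 45°, 77.4, 93.7 and 94.7 at Agp 135°, and 149.5, 129 and 138 at Agp 90°. In WS it had 23.9, 17.5 and 36.8 at Agp 45°, 66.6, 45.2 and 33.2 at Agp 135°, and 42.8, 61.9 and 39.8 at Agp 90°, so that the WS values lay close to the added value. Of the GDSL-type lipases, AT5G14450 had differences of -0.63 in Col-0 and -0.51 in WS, and AT2G40250 had -0.53 in Col-0 and -0.78 in WS.

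AT5G26260, a protein with a TRAF-like domain, differed in direction between the tilts in WS. Its signals were 1056, 1109 and 1293 in Col-0 at Agp 45°, 1750.4, 1360.5 and 1683 at Agp 135°, and 2085, 1445 and 1464 at Agp 90°. In WS they were 178, 251 and 199.5 at Agp 45°, 691, 1003 and 822 at Agp 135°, and 386, 381 and 205 at Agp 90°. All 3 forward-tilted WS arrays were above all other WS arrays, with a difference from upright of 1.32, against -0.04 in Col-0, and every Col-0 array was above every WS array. The remaining 9 named members had differences at Agp 45° from -0.67 to -0.50 in Col-0 and from -0.87 to -0.54 in WS. They include AT2G23110, a late embryogenesis abundant protein, AT1G03620, a protein with an ELMO/CED-12 domain, and AT5G50130, a short-chain dehydrogenase.

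Single arrays weighed on several of these values. When 1 array was left out, the difference at Agp 45° moved by over 1.5 times for 11 named members in Col-0 and for 4 in WS. Without Col-0 Agp 90° replicate 3 these were AT1G52820 and AT2G33850 as given above, XTH33 (-0.37) and AT1G30515 (-0.31). Without Col-0 Agp 90° replicate 1 they were OCT1 (-0.60), AT2G40250 (-0.33) and AT5G26260 (-0.32), and without Col-0 Agp 90° replicate 2 AT4G37290 (-0.38) and AT2G43530 (-0.27). Without Col-0 Agp 45° replicate 3 they were AT3G62820 (-0.38), AT4G22470 (-0.61) and AT1G52820. In WS, OCT1 ranged from -0.99 without WS Agp 45° replicate 3 to -0.27 without WS Agp 90° replicate 3, and AT2G23110 from -0.91 without WS Agp 45° replicate 3 to -0.32 without WS Agp 45° replicate 2. AT1G10640 was at -0.38 without WS Agp 45° replicate 1, and AT2G40250 at -0.51 without WS Agp 90° replicate 2. At Agp 135° many differences lie near 0, and 9 named members in Col-0 and 7 in WS changed sign when 1 array was left out.

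At the forward tilt the members lay on average between the backward-tilted and the upright levels. The median difference of the 78 from upright at Agp 135° was -0.36 in Col-0 (range -1.13 to 0.28) and -0.39 in WS (range -1.45 to 2.07), beside medians over all probe sets of -0.0047 in Col-0 and -0.0012 in WS. The Col-0 median was -0.25 without Col-0 Agp 90° replicate 3 and -0.43 without Col-0 Agp 90° replicate 2. Both tilts share the upright arrays that chose the members, so these values are not tested. The Agp 135° mean lay between the other 2 in both ecotypes for 56 of the 78 members and for 30 of the 38 named ones. Members were chosen for backward-tilted means below upright means, so another group can fall between them without any response to the forward tilt. The share of all probe sets with this order was not computed, nor were such shares for the counts that follow. The difference was -0.5 or less for 23 members in Col-0 and 28 in WS. It was 0.5 or more for 0 members in Col-0 and 4 in WS, and the named ones among those 4 were AT5G26260 and AT1G14960. Upright arrays helped choose the members, so the counts at -0.5 or less cannot separate a forward-tilt response from that choice.

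**Figure D3:**
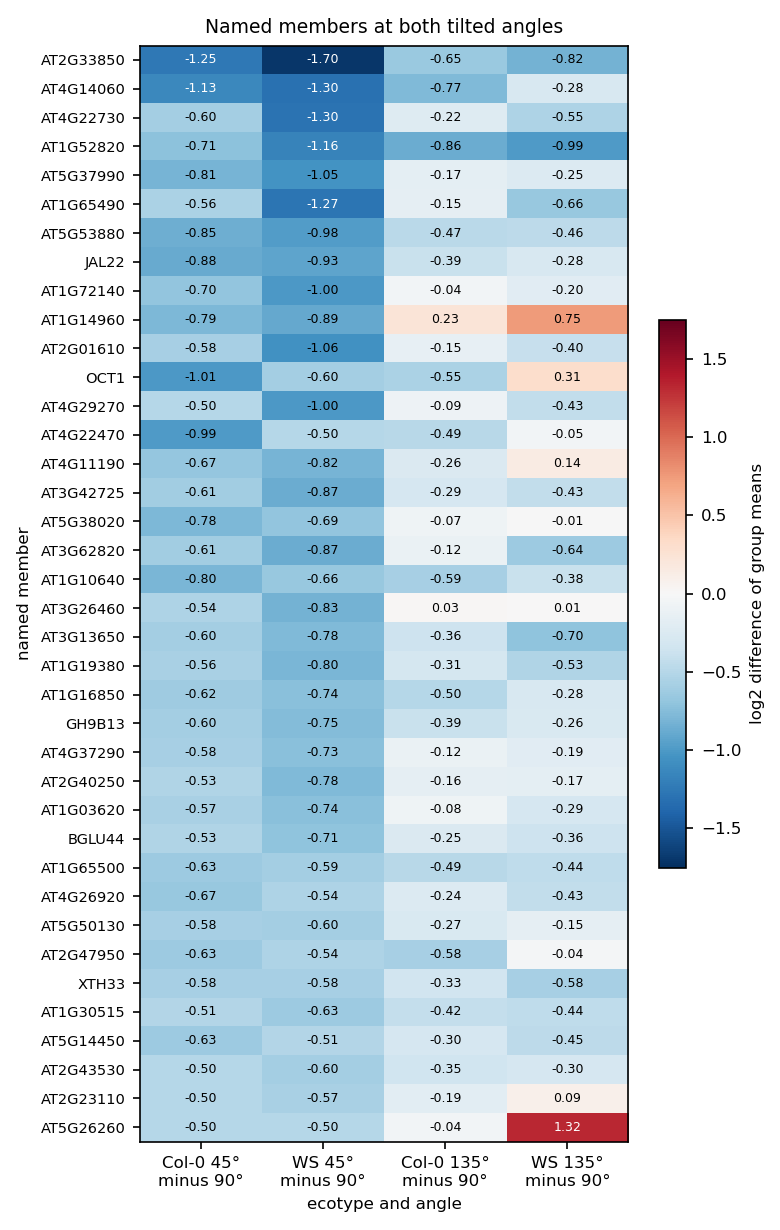
Each row is 1 of the 38 named members, ordered by its mean difference at Agp 45°, and the printed number and colour give the log2 difference of group means from Agp 90° for Col-0 and WS at Agp 45° and at Agp 135°. The columns for Agp 45° are all at or below -0.50 by the choice of members, and those for Agp 135° range up to 1.32 for AT5G26260 in WS.

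Probe sets without a gene name held the largest differences, and the ones with the lowest value in each ecotype are described here, chosen after their values were seen. The probe set 256779_at had signals of 49.8, 56.2 and 42.8 in Col-0 at Agp 45°, of 65.6, 78.8 and 53.8 at Agp 135°, and of 84.6, 159.8 and 437 at Agp 90°. In WS it had 50.0, 47.4 and 133 at Agp 45°, 429, 166 and 157 at Agp 135°, and 506, 656 and 899 at Agp 90°. Its difference at Agp 45° was -1.35 in Col-0 and -2.79 in WS, and no probe set was lower in WS. The probe set 252415_at had 50.8, 41.8 and 13.1 in Col-0 at Agp 45°, 118, 193 and 208 at Agp 135°, and 260.3, 244 and 183 at Agp 90°. In WS it had 40.5, 33.9 and 25.3 at Agp 45°, 769, 364 and 751 at Agp 135°, and 153, 212 and 139.5 at Agp 90°. Its differences at Agp 45° were -1.92 in Col-0, the lowest of all probe sets there, and -1.66 in WS. At Agp 135° all 3 Col-0 arrays were below all 3 WS arrays, and the forward-tilted WS arrays were the highest of the 18. Col-0 minus WS at Agp 135°, tested as described next, was -1.67 for 252415_at (adjusted p = 0.00058) and -1.38 for 256779_at (adjusted p = 0.0468).

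The group means at Agp 135° were not part of the rule, so the ecotypes were compared there by test. These arrays entered the choice only through the quantile normalization, which all 18 arrays shared: without 1 of them, 77 to 79 probe sets met the rule, and AT4G29270 missed the limit without any 1 of the WS arrays at Agp 135°. Signals were lower in Col-0 roots than in WS roots for most members that differed. Sequences under the probes were not compared between the ecotypes, so a difference in signal need not be one in transcript level. Of the 78 members, 31 passed limma's test of Col-0 against WS at an adjusted p under 0.05 (39.7%), beside 13.5% of all probe sets. Of these 31, 28 were lower in Col-0 (35.9% of the 78, beside 6.3% of all probe sets) and 3 were higher (3.85% of the 78, beside 7.19%). Among the 38 named members 13 were lower and 2 higher. The median over the 78 was -0.47 and that over all probe sets -0.03. All 3 Col-0 arrays lay below all 3 WS arrays for 40 members, beside 17.1% of all probe sets, and above them for 8, beside 14.3%. The count of 31 was 22 without Col-0 Agp 135° replicate 2 or without WS Agp 135° replicate 1.

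The methyltransferase AT5G38020 was lower in Col-0 than in WS at Agp 135° by a log2 difference of -2.32 (standard error 0.15, limma adjusted p = 3.21e-08, n = 3 arrays per ecotype), the smallest p among the members. Its neighbour AT5G37990 had -1.08 (adjusted p = 4.19e-05). The major latex protein-like genes followed with -2.07 for AT4G14060 (adjusted p = 6.98e-06), -1.84 for AT3G26460 (adjusted p = 1.27e-07) and -1.04 for AT1G14960 (adjusted p = 0.00251). JAL22 had -1.28 (adjusted p = 6.25e-06), the dirigent gene AT4G11190 -1.34 (adjusted p = 1.61e-05), and AT1G65500 -1.59 (adjusted p = 7.74e-06). Of the wall-related genes, AT2G01610 had -0.98 (adjusted p = 0.000951) and GH9B13 -0.60 (adjusted p = 0.00746), and the other 4 did not pass. AT2G47950 had -0.83 (adjusted p = 0.0056). Each of these 11 genes also passed in every alternative fit that included it.

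Lower levels in Col-0 were also called for AT2G33850 (-1.01, adjusted p = 0.0323) and AT4G29270 (-0.47, adjusted p = 0.0121). The call of AT2G33850 was lost without Col-0 Agp 135° replicate 2 (adjusted p = 0.0795), Col-0 Agp 135° replicate 3 (0.121), WS Agp 135° replicate 1 (0.136) or WS Agp 135° replicate 3 (0.0555), and with a pseudocount of 1 (0.0539). That of AT4G29270 was lost without WS Agp 135° replicate 1 (0.0647). Higher in Col-0 were AT5G26260 (0.89, adjusted p = 0.00873) and AT5G50130 (0.34, adjusted p = 0.0473). The call of AT5G50130 was lost in 17 of 25 alternative fits, with adjusted p up to 0.187 without WS Agp 135° replicate 1, and with 0.0662 with the replicate number as a block. The other 23 named members did not pass, which does not show that the ecotypes were alike for them. Among these, AT1G72140 had 0.01 (adjusted p = 0.96) and AT1G65490 -0.06 (adjusted p = 0.878).

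**Figure D4:**
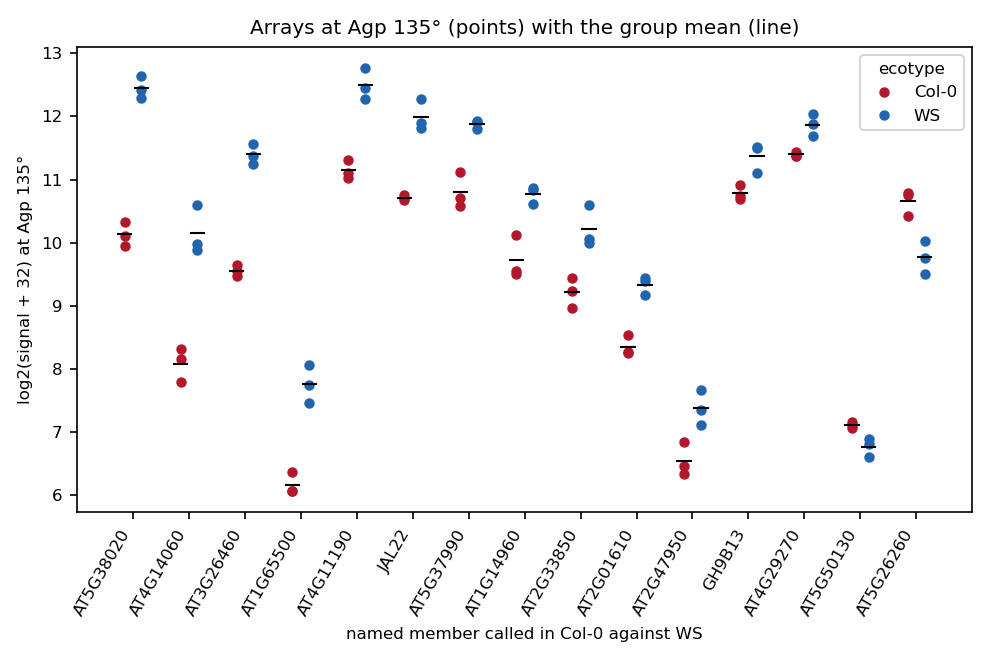
Points are single arrays at Agp 135° in log2(signal + 32) for the 15 named members called between the ecotypes, with Col-0 in red left of WS in blue and lines at the group means. Genes run from the lowest difference, -2.32 for AT5G38020, to the highest, 0.89 for AT5G26260, and the 3 arrays of each ecotype do not overlap for any of the 15.

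The order of the ecotypes at the other angles is given as a description, since those arrays chose the members. The Col-0 mean was below the WS mean for 57 of the 78 members at Agp 45°, for 64 at Agp 135° (54.9% of all probe sets) and for 64 at Agp 90°, and at all 3 angles for 53, beside 30.6% of all probe sets. Shares of all probe sets at Agp 45° alone and at Agp 90° alone were not computed. For AT5G38020 the difference between Col-0 and WS was -2.35 at Agp 45°, -2.32 at Agp 135° and -2.26 at Agp 90°. For AT1G14960 it was -0.42 at Agp 45°, -1.04 at Agp 135° and -0.52 at Agp 90°. AT5G26260 had 2.25 at Agp 45°, 0.89 at Agp 135° and 2.25 at Agp 90°.

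Genes that are not members were counted from lists of root pathways, cell type markers and enzyme families. Of the lists with at least 5 measured genes, the one of xyloglucan endotransglucosylase/hydrolases was the only one to hold a member (XTH33), and no list covered the major latex, dirigent, lectin or methyltransferase families. Family lists were matched by gene symbol or synonym, so genes that carry only a locus name could be missed. The member AT2G23110, a late embryogenesis abundant protein, is not on its family's list. Of 106 listed genes with a named probe set, limma called 0 at Agp 45° in Col-0 by the adjusted p (at unadjusted p under 0.05, 4 were higher and 6 lower). In WS it called 1 higher and 2 lower (7 higher and 14 lower unadjusted). Of all 22746 probe sets, 2850 in WS and 1672 in Col-0 had an unadjusted limma p under 0.05, both directions together. Of 8 xyloglucan endotransglucosylase/hydrolases besides XTH33, in WS XTH32 fell (-0.51, adjusted p = 0.0282) and XTH21 rose (0.98, adjusted p = 0.0285). AT2G31790, a glucosyltransferase of aliphatic glucosinolate synthesis, fell in WS (-0.62, adjusted p = 0.0281), and the other 4 measured genes of that pathway did not pass. Without adjustment 4 of these 5 genes were lower and 0 higher in WS, with a median of -0.47 over the 5, and 1 was lower and 0 higher in Col-0, with a median of -0.17. Of the 47 UDP-glycosyltransferases, 22 cytochromes P450, 5 late embryogenesis abundant proteins and 6 root hair marker genes so listed, 0 passed in either ecotype. The glucosyltransferase AT2G31790 was not among those 47. By the unadjusted p, WS had 4 higher and 5 lower UDP-glycosyltransferases and 0 of the other 3 lists, and Col-0 had 0 higher and 3 lower UDP-glycosyltransferases, 1 higher and 2 lower cytochromes P450 and 0 of the remaining 2 lists. The WS calls of list genes depended on single arrays: 0 passed without WS Agp 45° replicate 1 or without WS Agp 90° replicate 2.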

How the data were processed

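Roots of 2 ecotypes at 3 plate angles were measured on 18 arrays. The authors deposited MAS5 signal intensities from Affymetrix Expression Console (versions not given in the sources used here) for 22810 probe sets, on a linear scale on which each array's mean, trimmed by 2% at each end, was 500. That step already scales the arrays to each other. The median signal of an array was 193 to 208. The methods of the study used RMA, which needs the scanner images and was not computed here. To all 22810 probe sets 32 was added, and log2 values were quantile normalized over all arrays. The 64 control probe sets were left out after that step. A limma 3.58.1 model (R 4.3.3) with 1 mean per group was fitted, with 12 residual and 3.45 prior degrees of freedom, and two-sided p-values were adjusted by Benjamini-Hochberg over 22746 probe sets. The model was tested on simulated data. The members and gene lists were chosen with earlier results of these data known.

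Values of every array are given for the 8 named members with the largest mean difference at Agp 45°, the 4 with the highest mean signal, the 8 with the smallest adjusted p at Agp 135°, and the 3 nearest the limit on the inside, and differences alone for the 3 nearest on the outside. AT1G14960, 256779_at and 252415_at were added after their values were seen. Names came from the array's annotation, in which 13513 probe sets have 1 gene, 503 several and 8730 none, and from the TAIR10.1 gene table, which matched 13436 and was used for names and neighbours only. No sequence was available for the members, so none is printed. Of 23 gene lists, 6 had at least 5 named genes. The main fit did not pair arrays by replicate number. The alternatives were pseudocounts of 1 and 100, no quantile step, leaving out the 40% dimmest probe sets or single arrays, an intensity trend, a replicate block, a fit to the compared groups, and limits of -0.4 and -0.6.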

Additional observations from a re-analysis of the deposited data

How the results depend on the processing

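The number of members depends on the scale and the limit. With a pseudocount of 1, 567 probe sets met the rule, with a pseudocount of 100 28, without the 40% dimmest probe sets 45, and with limits of -0.4 and -0.6 145 and 35. With single arrays left out the number was 67 to 92, and 25 of the 78 members, 9 of them named, met the rule in all 18 such cases. The deposited scaling without the quantile step gave 82, of which 75 were members. The median forward difference in Col-0 was -0.47 with a pseudocount of 1, -0.26 with 100 and -0.43 without both arrays with a high actin ratio, and -0.43 to -0.25 with single arrays left out. In WS it was -0.28 with a pseudocount of 100 and -0.44 to -0.31 with single arrays left out. The cause of these shifts was not tested beyond the alternatives' own construction.

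Members called at Agp 135° numbered 31, and 22 to 32 with single arrays left out, and calls over all probe sets 3069, and 2233 to 3147. At Agp 45° in Col-0 the 5 calls over all probe sets became 0 with a pseudocount of 1 or the compared groups only, 11 with a pseudocount of 100, 22 without the dimmest probe sets, 10 with an intensity trend, 3 without both arrays with a high actin ratio, and 0 to 7 with single arrays left out. In WS the 224 calls became 10 with the compared groups only and 91 without those 2 arrays, and 79 to 233 with single arrays left out. Of list genes, 7 passed in WS without the dimmest probe sets, 1 without those 2 arrays, and 0 to 5 with single arrays left out, beside 3. Arrays with the same replicate number were little alike: 45 such pairs had a median residual correlation of -0.00285 (-0.229 to 0.146), and 5 of 18 arrays correlated best with their own number. Correlations over all probe sets cannot tell whether such arrays shared a plate or planting. With the replicate number as a block, 29 members were called at Agp 135° and 2895 probe sets in all. No direction of a named member called at Agp 135° turned under any alternative. Of the members, 9 had a mean signal under 32, so their differences rest on values near the added 32.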
